A study of Mus musculus with 12 samples.

Results

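Genes for respiratory complexes II, III, IV and V were examined in the left ventricle of adult mice. The set was taken by gene symbol: the 4 Sdh genes of succinate dehydrogenase, every symbol that starts with Uqcr, Atp5 or Cox4 to Cox8, and the cytochrome genes Cyc1 and Cycs. It held 49 genes of the 21669 names in the count tables: 4 of complex II, 9 of complex III with Cyc1, 18 of complex IV, 17 of complex V, and Cycs. Subunits encoded in the mitochondrial genome were not part of it. Hearts came from wild-type mice (WT) and from mice without Rpl3l (Rpl3l-/-, here KO). Rpl3l encodes a ribosomal protein paralogous to Rpl3. Each genotype gave 3 libraries of polyadenylated RNA (RNA) and 3 of ribosome-protected fragments (RPF, footprints), which made 4 groups and 12 libraries. All lysates held cycloheximide, which stalls ribosomes on the mRNA. How the allele was made, the strain, the sex and the exact age are not given in the sources used here.

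The complexes sit in the inner mitochondrial membrane. Complex II oxidises succinate and passes electrons to ubiquinone, complex III passes them from ubiquinol to cytochrome c, and complex IV passes them to oxygen. Complex V, the ATP synthase, uses the proton gradient built by the chain to make ATP. The heart is among the tissues richest in these proteins. Several small subunits of complex IV come from separate genes for a muscle form (Cox6a2, Cox7a1, Cox8b) and for a form found in liver and most other tissues (Cox6a1, Cox7a2, Cox8a).

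The muscle and liver forms differ enough in sequence for a footprint to tell them apart. The last 90 coding bases of each form are shown 5′ to 3′ because the isoform shares rest on this difference, and capitals mark bases that differ from the aligned partner or have none.
Cox6a1: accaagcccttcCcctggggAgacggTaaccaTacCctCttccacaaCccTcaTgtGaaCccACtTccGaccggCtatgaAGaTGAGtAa
Cox6a2: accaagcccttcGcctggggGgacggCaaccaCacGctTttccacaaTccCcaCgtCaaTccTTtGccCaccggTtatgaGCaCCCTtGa
Cox7a1: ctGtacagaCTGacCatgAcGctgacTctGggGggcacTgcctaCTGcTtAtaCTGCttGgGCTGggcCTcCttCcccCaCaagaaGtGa
Cox7a2: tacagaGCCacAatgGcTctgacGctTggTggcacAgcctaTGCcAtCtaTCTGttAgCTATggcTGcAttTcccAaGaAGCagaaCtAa
Cox8a: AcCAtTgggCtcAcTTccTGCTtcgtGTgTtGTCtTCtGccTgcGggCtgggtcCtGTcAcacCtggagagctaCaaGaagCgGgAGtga
Cox8b: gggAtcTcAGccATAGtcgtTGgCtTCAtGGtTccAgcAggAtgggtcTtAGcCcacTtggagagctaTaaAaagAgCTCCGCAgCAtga
These stretches end at the stop codon and come from GENCODE M21 transcripts on GRCm38. The transcripts lie at chr5:115345642-115348981 (Cox6a1, minus strand), chr7:128205435-128206387 (Cox6a2, minus), chr7:30184144-30186030 (Cox7a1, plus), chr9:79755361-79759878 (Cox7a2, minus), chr19:7215153-7217616 (Cox8a, minus) and chr7:140898945-140900446 (Cox8b, minus). Over the whole aligned coding sequence, 62.6% of bases were identical between Cox6a1 and Cox6a2, 61.7% between Cox7a1 and Cox7a2, and 53.9% between Cox8a and Cox8b. No pair shared a stretch of 28 bases, about the length of a footprint, and the longest identical run was 12 bases in the Cox6a and Cox7a pairs and 10 in the Cox8 pair. Cox6a2, Cox7a1 and Cox8b also shared no such stretch with any other annotated gene. Of the coding stretches of Cox6a1, 35.3% occurred in another gene, against 16.4% for Cox7a2 and 1.64% for Cox8a.

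Total counts were 6635242 to 8459004 per RNA library and 3827862 to 7474602 per RPF library. The genes of the set took 4.003% to 4.957% of RNA counts and 6.51% to 6.885% of RPF counts. Mitochondrially encoded transcripts took 49.84% to 58.24% of RNA counts and 2.281% to 5.222% of RPF counts. The targeted gene Rpl3l had 2726 to 3329 raw RNA counts per WT library and 276 to 442 per KO library, and 937 to 1108 against 30 to 65 RPF counts, so each KO library lay below each WT library. In the first principal component of RNA (46.2% of the variance), WT 1 and 2 and KO 2 lay apart from WT 3 and KO 1 and 3, and in RPF (38.2%) WT 1 lay apart from the other libraries. Cardiomyocyte markers summed to between 50750 and 65590 CPM (counts scaled to library size) over WT and between 49510 and 55040 over KO RNA libraries, and all 9 listed markers were detected. In bulk tissue, fewer cells of a type and less RNA per cell cannot be told apart. Nothing in the labels says from how many animals the libraries of a group came beyond their being biological triplicates, so each library is taken as 1 heart.

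Of the 49 genes, 45 had enough counts to be tested in both assays. Cycs and Cox8c were at 0 counts in all 12 libraries, where 3 counts are taken as the smallest detectable number. Cox7b2 had at most 2 RNA and 9 RPF counts in a library, and Cox6b2 at most 8 and 20. Levels below are CPM per kb, with RNA divided by transcript length and RPF by coding length, as mean ± SD over the 6 libraries of an assay, 3 WT and 3 KO. RNA and RPF levels are on separate scales, and only levels within an assay are compared as such.

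In complex II, footprints were nearly level across the 4 subunits while their mRNAs were not. The RPF level was 1423 ± 84.1 CPM per kb for Sdha (the flavoprotein that binds succinate), 2403 ± 103 for Sdhb (the iron-sulfur subunit), 1753 ± 126 for Sdhc and 1232 ± 70.1 for Sdhd, the membrane anchors (SD, n = 6). From the lowest to the highest this is 1.95-fold. The RNA level was 966 ± 104 CPM per kb for Sdhb and 115 ± 11.1 for Sdha, but 8.66 ± 3.03 for Sdhc and 11.4 ± 3.95 for Sdhd (SD, n = 6). The RNA range was 112-fold, and it lay between 70.0-fold and 191-fold in the single libraries, against 1.82-fold to 2.10-fold in RPF. With RNA divided by coding length the range was 44.5-fold. With raw CPM the range was 78.7-fold in RNA and 4.80-fold in RPF, so the near-level footprints depend on dividing by coding length, while the RNA range stayed the wider one.

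The anchors had few RNA reads next to Sdha and Sdhb, though not next to the typical gene. Their RNA averaged 27.5 CPM (Sdhc) and 14.0 CPM (Sdhd), above the median of all genes tested in both assays. That median was 2.48 CPM per kb of transcript. Sdhc had 137, 133 and 350 RNA reads in the WT libraries and 261, 132 and 325 in the KO libraries, against 3425 to 7066 footprints. Sdhd had 67, 74 and 199 RNA reads in the WT libraries and 111, 68 and 173 in the KO libraries, and at least 2614 footprints in all libraries but WT 2. The fewest footprints of either gene in a library exceeded the most RNA reads of that gene in any library. These counts are on the separate scales of the assays. Over all genes tested in both assays, the median was also higher in RPF, at 28.3 CPM against 7.09 CPM in RNA. None of the 28-base coding stretches of the 4 Sdh genes occurs in another annotated gene. The Sdhc transcript lies at chr1:171127165-171150603 (6 exons) and holds a 3′ UTR of 2636 bases, and that of Sdhd lies at chr9:50596357-50603812 (4 exons) with a 3′ UTR of 728 bases. Why these mRNAs were low next to those of Sdha and Sdhb was not tested.

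In complex III the RNA level ranged 10.4-fold, from Uqcrc2 (a core subunit) at 153 ± 29.5 CPM per kb to Uqcrh (the hinge subunit next to cytochrome c1) at 1595 ± 238 (SD, n = 6). The RPF level ranged 4.50-fold, from Uqcrc2 at 1317 ± 89.1 to Uqcr11, a small subunit, at 5928 ± 795 CPM per kb. This RPF order rests on the division by length: with raw CPM, Uqcrc1 was highest and Uqcr10 lowest, and the 2 orders had a Spearman's rho of -0.62 over the 9 genes. The RNA range, 6.75-fold with raw CPM, stayed above the 4.44-fold of RPF. Uqcrc1 and Uqcrc2 form the paired core of the complex. Their RNA ratio was 4.68 ± 1.0 and their RPF ratio 1.45 ± 0.12 (SD, n = 6), and no RNA library (3.53 or more) overlapped an RPF library (1.65 or less). Cyc1 is the cytochrome c1 that hands electrons to cytochrome c, and Uqcrfs1 is the Rieske iron-sulfur protein. The ratio of Uqcrfs1 to Cyc1 was 0.739 ± 0.092 in RNA and 1.11 ± 0.20 in RPF. The assays barely separated, at 0.854 at most in RNA and 0.855 at least in RPF, and they overlapped with RNA per coding length (0.908 at most) and with raw counts (0.766 at most in RNA and 0.722 at least in RPF).

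Cycs, the somatic cytochrome c that carries electrons to complex IV, had no count in any library although the heart depends on this protein. All of its 291 coding stretches of 28 bases also occur in other annotated genes. Over its whole transcript, 32.3% of the 3096 such stretches do, and the rest occur in no other gene. Gm10053, the gene that shares the most stretches of the transcript (891), was likewise at 0 in all 12 libraries. The most widely shared coding stretch, coding bases 137 to 164, occurs in 10 other genes and is shown as an example.
Cycs: gattctcttacacagatgccaacaagaa
The Cycs transcript lies at chr6:50562563-50566538 (GRCm38, minus strand, 3 exons). All coding stretches of Atp5g1, Atp5g2, Atp5l and Cox7c were shared as well, and these genes had at most 12832, 2236, 4166 and 8890 RPF counts in a library. How the authors treated reads with several matches is not given in the sources used here, and its part in the zero of Cycs was not tested.

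Complex IV was read by subunit position, with the isoforms of a position summed and Cox7a2l, a factor that joins complexes III and IV, left out. Over 10 positions the RNA level ranged 9.27-fold, from Cox7b at 658.5 ± 60.3 to Cox4 at 6102 ± 826 CPM per kb. The RPF level ranged 19.2-fold, from Cox5b at 561 ± 77.7 to Cox6a at 10750 ± 2000 CPM per kb (SD, n = 6). The wide RPF range rested on Cox5b alone: with that position left out it was 4.38-fold, below the 9.27-fold of RNA. Cox5b, whose product faces the matrix, gave 861 to 1345 CPM in RNA and 178 to 253 CPM in RPF, on the separate scales of the assays. Of its coding stretches 76.9% also occur in other genes, mostly in Gm11273, which had at most 3 counts in a library. The next lowest position in RPF was Cox7b at 2455 ± 366. Cox4i1, the main form of Cox4, was the most abundant mRNA of the whole set at 6082 ± 826 CPM per kb in RNA. Its hypoxia- and lung-associated form Cox4i2 was the least abundant tested gene of complex IV, at 20.1 ± 2.64 in RNA and 15.3 ± 4.71 in RPF.

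In complex V, 14 positions with a known length were compared, with the 3 genes of the membrane ring (Atp5g1, Atp5g2, Atp5g3) summed. The RNA level ranged 16.2-fold, from Atp5j2 at 231 ± 63.5 to the Atp5g sum at 3734 ± 340 CPM per kb. The RPF level ranged 13.8-fold, from Atp5mpl at 764 ± 111 to the Atp5g sum at 10510 ± 684 (SD, n = 6). Which assay had the wider range depended on length: it was 11.8-fold in RNA with coding length, and 20.9-fold in RNA and 71.0-fold in RPF with raw CPM. Per kb, the summed Atp5g position was the highest in both assays. That order rests on the division by length. With raw CPM, the highest positions were Atp5b in RNA, at 4606 CPM, and Atp5a1 in RPF, at 9608 CPM. Atp5a1 and Atp5b encode the alpha and beta subunits, which alternate in equal number in the catalytic head. Their footprints were level, with a ratio of Atp5a1 to Atp5b of 0.964 ± 0.067 and libraries from 0.869 to 1.03. Their mRNAs were not: the ratio in RNA was 0.242 ± 0.032, from 0.201 to 0.282 (SD, n = 6). With raw counts in place of levels per kb the ratios were 1.01 in RPF and 0.312 in RNA. Atp5c1 encodes the gamma subunit, present in fewer copies. The ratio of Atp5b to Atp5c1 was 4.27 ± 0.46 in RPF and 3.01 ± 0.45 in RNA (SD, n = 6). Here RPF was the less even assay, with libraries from 3.71 to 4.92, against 2.39 to 3.58 in RNA. Whether the ratios of either assay follow the number of copies in the complex was not tested. Among single genes the lowest RNA level was that of Atp5g2 at 204 ± 20.2 and the highest that of Atp5o, the stalk subunit that confers oligomycin sensitivity, at 3192 ± 634 CPM per kb.

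**Figure D1:**
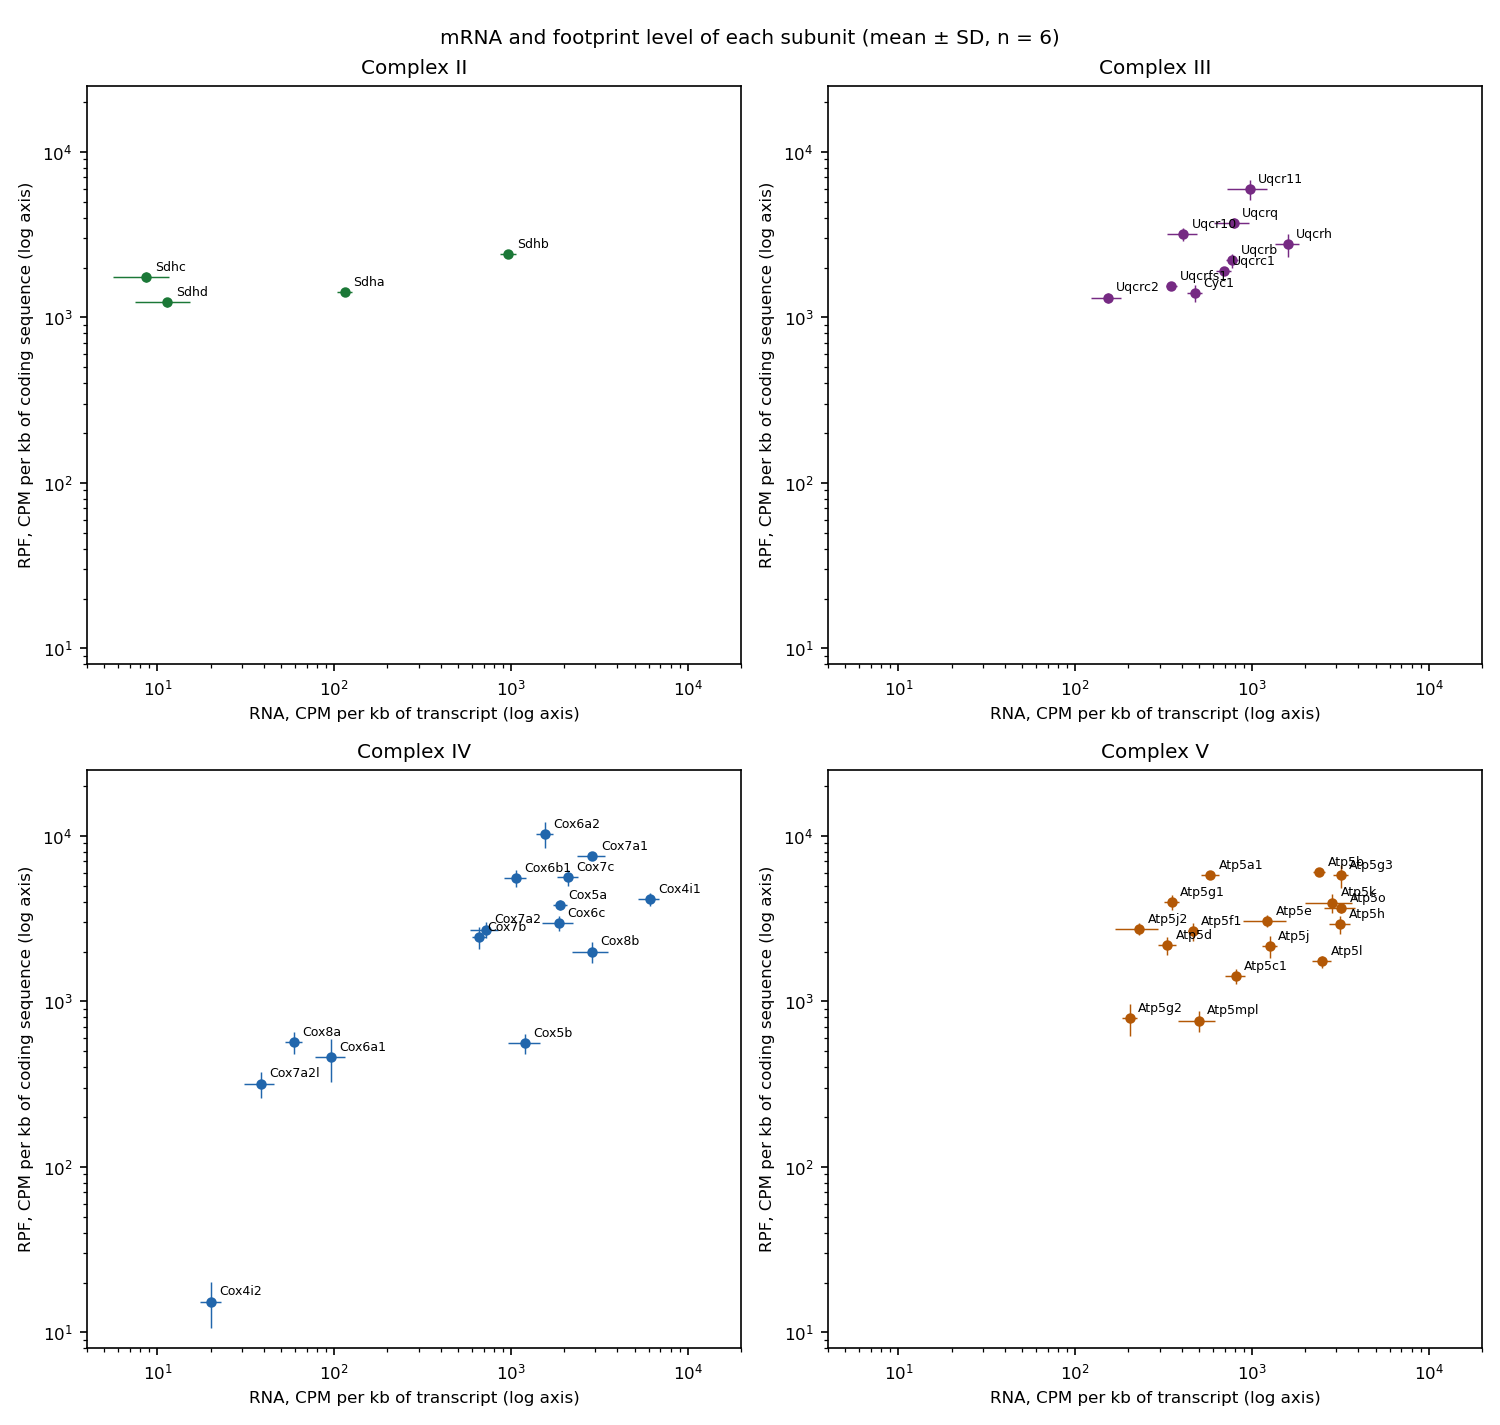
RNA level (x, CPM per kb of transcript) against RPF level (y, CPM per kb of coding sequence) for the 44 tested genes of known length, both axes logarithmic, with 1 panel per complex, points for the mean and bars for the SD over 6 libraries. Complex II lies along a flat line, with RPF between 1232 and 2403 while RNA runs from 8.66 to 966, and Cox5b and Cox8b sit below other complex IV genes of similar RNA level.

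Over the 44 tested genes of known length, the SD of the log2 level was 2.23 in RNA and 1.56 in RPF. For all genes tested in both assays these values were 2.63 and 2.22, and for the nuclear-encoded subunits of complex I, 1.98 and 0.986. A narrower spread in RPF was therefore not particular to complexes II to V.

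The ratio of footprints to mRNA was then fitted over all 12 libraries, relative to the typical gene. Of the 45 genes, 33 were lower (39.1% of all 8044 genes tested were called lower) and 5 were higher (41.9% of all genes), in edgeR's quasi-likelihood test at an adjusted p of 0.05. The median log2 ratio of the set was -0.96 against 0.07 over all genes. The split depended on the genes kept for scaling: when the fit kept only genes averaging 50 counts or more, 24 were lower and 12 higher of 44 tested, and the median was -0.35. The order of the genes, rather than the position of 0, is therefore described.

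The highest ratios belonged to complex II. The log2 ratio was 3.74 for Sdhd (SE 0.19), 3.38 for Sdhc (SE 0.20) and 1.44 for Sdha (SE 0.11), with adjusted p-values of 2.4e-11, 8.2e-11 and 2.7e-09 in edgeR's test. Sdhb, the fourth subunit, had a ratio of -0.76 (SE 0.11). Atp5a1 (1.10) and Uqcrc2 (0.98) completed the 5 genes that were higher. The labels do not say that same-numbered RPF and RNA libraries came from the same heart, and ratios between them are given for display. Between same-numbered libraries, the log2 ratio of Sdhd was 4.31, 4.17 and 3.23 in WT and 3.60, 4.12 and 3.31 in KO, so the genotypes overlapped.

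The lowest ratios belonged to small subunits of complexes IV and V. The log2 ratio was -3.90 for Cox5b (SE 0.16), -2.97 for Atp5l (a membrane subunit of the ATP synthase, SE 0.13) and -2.94 for Cox8b (SE 0.16), with adjusted p-values of 2.0e-12, 2.6e-12 and 5.2e-11 in edgeR's test. Cox8b was -3.47, -2.90 and -2.16 in WT and -2.79, -3.39 and -2.79 in KO. The median was 2.41 in complex II, -0.42 in complex III, -1.19 in complex IV and -1.67 in complex V. Complex I, for comparison, had a median of -1.97 over 38 genes.

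**Figure D2:**
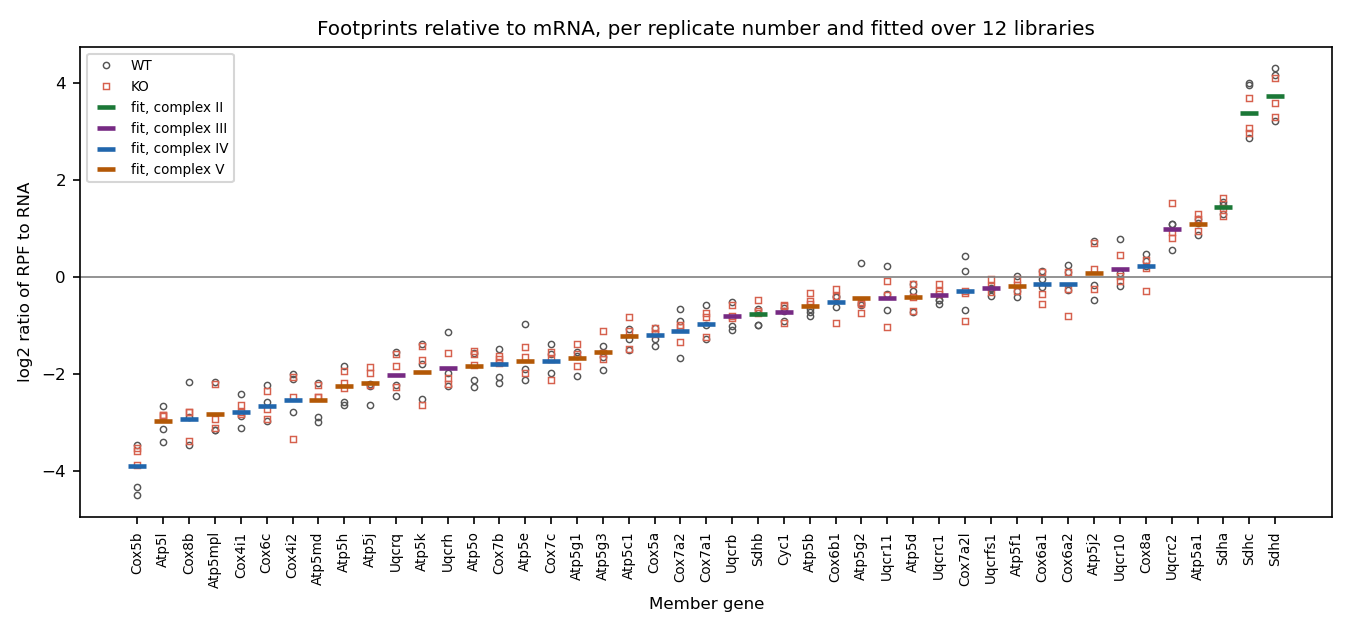
Log2 ratio of RPF to RNA for the 45 tested genes, ordered by the fitted value (coloured dash, by complex), with circles for WT and squares for KO, each from the RNA and RPF library of the same genotype and number. Cox5b at -3.90 is at the left end and Sdhc and Sdhd, above 3, stand apart at the right end, and WT and KO symbols are mixed along the whole order.

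Properties of the transcripts went along with this order. Across 44 genes, Spearman's rho of the ratio was 0.52 with the length of the 3′ UTR and 0.33 with coding length, against 0.39 and 0.20 over all genes tested. With the share of coding stretches that occur in another gene, rho was -0.29. All 5 genes with higher ratios were among the 16 without any shared coding stretch. A ratio below 0 was found for 11 of these 16 genes and for 25 of the 28 with a shared stretch, and for 7 of 15 and 18 of 28 when the fit kept only genes averaging 50 counts or more. These are descriptions across genes, which share libraries and scaling and are not replicates. The part of read length, of the region counted and of poly(A) selection in the ratios was not tested.

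Muscle isoforms made up most of each isoform pair in the ventricle. By RNA level per kb, the share of Cox6a2 in Cox6a was 95.5%, 92.1% and 94.3% in WT and 94.8%, 94.1% and 94.0% in KO. The share of Cox7a1 in Cox7a was 80.0%, 79.8% and 79.4% in WT and 81.3%, 80.1% and 80.0% in KO. The share of Cox8b in Cox8 was 98.6%, 97.9% and 97.7% in WT and 97.7%, 98.1% and 97.6% in KO. Cox6a and Cox8 were thus nearly all of the muscle form, while Cox7a held more of its liver form.

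No difference in share between genotypes passed an exact test, which 3 against 3 libraries cannot do at 0.05. The Cox7a1 share in RNA differed by 0.71 percentage points, more than the SD of the WT libraries, while the other differences were below the SD of the WT libraries. For RNA, Cox6a2 was 94.0% ± 1.72 in WT and 94.3% ± 0.45 in KO (exact two-sided permutation p = 0.9), Cox7a1 79.8% ± 0.32 and 80.5% ± 0.73 (exact p = 0.2), and Cox8b 98.1% ± 0.47 and 97.8% ± 0.27 (exact p = 0.6, SD, n = 3 each). For RPF, Cox6a2 was 95.8% ± 1.03 and 95.6% ± 0.68 (exact p = 0.8), Cox7a1 72.6% ± 3.65 and 74.5% ± 1.66 (exact p = 0.5), and Cox8b 78.4% ± 4.30 and 77.1% ± 1.94 (exact p = 0.7). With 3 against 3 libraries the smallest p is 0.1. A p above it does not show that the shares are the same: the KO minus WT difference in the RPF share of Cox8b, -1.31 percentage points, ran from -3.27 to 0.987 when a library was left out.

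Of the 3 muscle and liver pairs, Cox8 was the one whose share differed between assays both per kb and with raw counts. Cox8b made up 97.9% ± 0.38 of Cox8 RNA and 77.8% ± 3.07 of Cox8 footprints (SD, n = 6 each), and every RNA library (97.55% or more) lay above every RPF library (83.01% or less). The exact two-sided permutation p was 0.0022, the smallest that 6 against 6 libraries allow, and 0.0050 after adjustment over the 9 isoforms compared. This test, used for all comparisons of shares between assays, took the libraries as independent and left genotype aside. The labels do not say whether RNA and RPF libraries came from the same hearts, and if they did, the p-values would not hold as given. With raw counts the shares were 96.9% and 78.0% (exact p = 0.0022, adjusted 0.0099). Cox8a gave 28.1 to 37.9 CPM in RNA and 96.2 to 151 CPM in RPF, while Cox8b gave 779 to 1371 CPM in RNA and 374 to 543 CPM in RPF. These CPM are on the separate scales of the assays. In the fit relative to the typical gene, the log2 ratio of RPF to RNA was 0.22 for Cox8a (SE 0.12) and -2.94 for Cox8b. The adjusted p of Cox8a was 0.11 in edgeR's test. The comparison of assays was chosen after the values were seen.

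Cox7a1 was 80.1% ± 0.64 of RNA and 73.5% ± 2.75 of RPF per kb (exact p = 0.0022, adjusted 0.0050), but with raw counts it was 70.6% and 72.8% (exact p = 0.1, adjusted 0.29), so its direction rests on the lengths used. Cox6a2 was 94.1% ± 1.15 of RNA and 95.7% ± 0.79 of RPF per kb (exact p = 0.017, adjusted 0.026), and 95.0% and 95.1% with raw counts (exact p = 0.94). In the Atp5g family, raw counts gave Atp5g1 40.3% of RNA and 36.9% of RPF (exact p = 0.13) and Atp5g3 56.0% and 55.2% (exact p = 0.76). Per kb, Atp5g1 was 9.40% of RNA and 37.8% of RPF (exact p = 0.0022), and its annotated transcript carries a 3′ UTR of 4252 bases. Atp5g2 was the minor form under either count. It held 3.66% of raw RNA counts and 7.91% of raw RPF counts (exact p = 0.0022, adjusted 0.0099), and 5.50% and 7.56% per kb (exact p = 0.0065, adjusted 0.012). Of the 28-base coding stretches, 100% in Atp5g1 and in Atp5g2 occur in other genes, against 0.0% in Atp5g3. How such reads were counted is not known, and its part in the shares of this family was not tested. The minor partners Cox4i2, Cox6b2 and Cox7b2 made up less than 1% of their positions in each library.

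**Figure D3:**
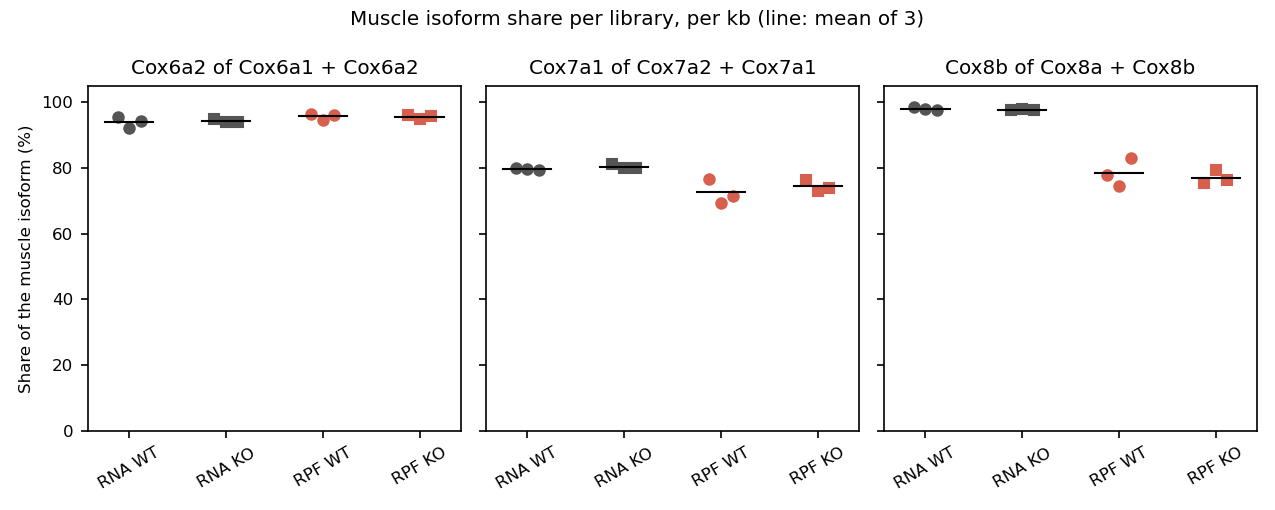
Share of the muscle isoform (percent of the pair, levels per kb) in each library for Cox6a2, Cox7a1 and Cox8b, with points for libraries and lines for the mean of 3. WT and KO overlap in every panel, and the Cox8b share is 97.55% to 98.60% in RNA and 74.49% to 83.01% in RPF.

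The comparison of genotypes asks whether the loss of Rpl3l changed the mRNA, the footprints or their ratio. No gene of the set passed edgeR's quasi-likelihood test at an adjusted p of 0.05: 0 of 45 in RNA (0.0119% of 8379 genes tested were called), 0 of 45 in RPF (0.00897% of 11153) and 0 of 45 in the ratio of RPF to RNA (0.0% of 8044). DESeq2 likewise called 0 of 45 in each, and at an unadjusted p below 0.05 it gave the same numbers of genes of the set as edgeR in all 3 comparisons. At an unadjusted p below 0.05, 0 genes of the set were higher or lower in RNA (1.66% of all genes higher, 0.883% lower), 1 was higher and 2 were lower in RPF (2.73% and 3.23% of all genes), and 0 were higher or lower in the ratio (1.77% and 1.96%). The standard errors of the log2 fold changes had a median of 0.19 in RNA, 0.12 in RPF and 0.26 in the ratio. The estimates ran from -0.25 (Cyc1) to 0.30 (Sdhc) in RNA and from -0.37 (Atp5g2) to 0.37 (Atp5md) in RPF.

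The 3 genes at an unadjusted p below 0.05 in RPF were of complexes IV and V. Atp5g2, the minor gene of the membrane ring, gave 320, 496 and 362 CPM in WT and 301, 318 and 295 CPM in KO. Each KO library lay below each WT library, with WT 2 well above the rest. The log2 fold change was -0.37 (SE 0.15), at an adjusted p of 0.834 in edgeR's test, and -0.16 without WT 2. In RNA, Atp5g2 averaged 149 ± 20.4 CPM over WT and 149 ± 11.5 over KO libraries (SD, n = 3 each).

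Cox6a2, the muscle form of Cox6a, gave 3197, 3769 and 3084 CPM in WT and 3212, 2078 and 2809 CPM in KO. The groups overlapped through KO 1, and KO 2 was the lowest library. The log2 fold change in RPF was -0.31 (SE 0.14), at an adjusted p of 0.834 in edgeR's test, and -0.15 without KO 2. Its RNA averaged 1040 ± 149 CPM over WT and 1067 ± 99.1 over KO libraries (SD, n = 3 each). Cox6a1, the other form, had a similar RPF estimate of -0.33 (SE 0.20), which moved to 0.02 without WT 2.

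Atp5md encodes a small membrane subunit of the ATP synthase, and gave 158, 129 and 187 CPM in WT and 192, 239 and 180 CPM in KO RPF. The groups overlapped, as WT 3 lay above KO 3. The log2 fold change was 0.37 (SE 0.16), at an adjusted p of 0.834 in edgeR's test, and it ran from 0.24 to 0.51 when a library was left out. Atp5md had no match in the annotation used here, so no level per kb is given.

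Genes whose WT and KO libraries did not overlap were few, and their shares are set beside those of all genes. In RNA, 1 of 45 was higher in KO (4.14% of all genes) and 2 were lower (3.19%). Cox4i2 gave 15.3, 12.3 and 12.3 CPM in WT and 16.25, 16.18 and 16.2 CPM in KO RNA, a log2 difference of 0.29 (SE 0.17) with an adjusted p of 0.999 in edgeR's test. Cyc1 gave 802, 784 and 780 CPM in WT and 657, 692 and 641 CPM in KO RNA, a log2 difference of -0.25 (SE 0.16) at the same adjusted p. The third was Uqcrc1, at 1232 ± 65.5 CPM over WT and 1057 ± 54.7 over KO RNA libraries (SD, n = 3 each). Cyc1 was also lower on average in RPF, at 1488 ± 126 CPM for WT against 1265 ± 130 for KO, but there the groups overlapped. Its log2 fold change of -0.23 (SE 0.12) had an adjusted p of 0.834 in edgeR's test.

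In RPF, 2 of 45 were higher in KO without overlap (6.27% of all genes) and 2 were lower (5.77%). The higher genes were Atp5b, at 9192 ± 298 CPM over WT and 9914 ± 197 over KO libraries, and Atp5o, at 2228 ± 124 and 2483 ± 86.2 CPM (SD, n = 3 each). The lower genes were Atp5g2 and Cox6c, a small subunit of complex IV, at 739 ± 35.8 and 637 ± 55.3 CPM. Among the 6 isoforms of the muscle and liver pairs, Cox7a1 had an RPF log2 fold change of -0.02 (SE 0.11), Cox7a2 -0.17 (SE 0.13), Cox8a -0.12 (SE 0.17) and Cox8b -0.25 (SE 0.14), none past the test. In RNA the 6 estimates lay between -0.11 (Cox7a2) and 0.17 (Cox8a).

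**Figure D4:**
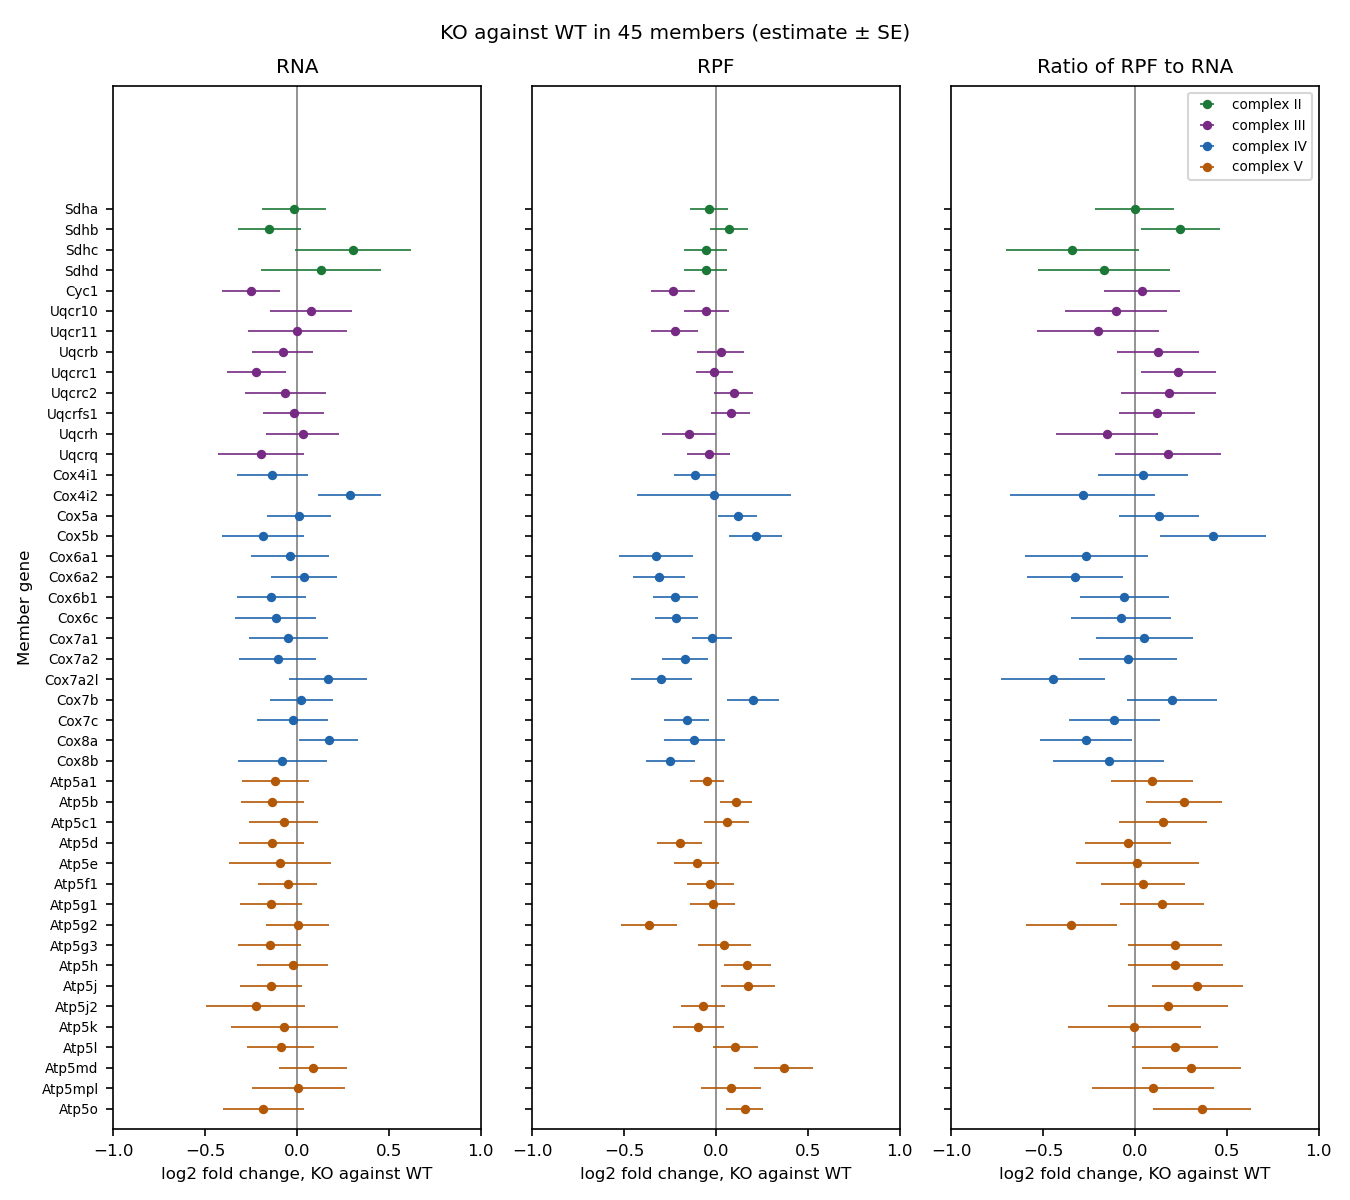
Log2 fold change of KO against WT for the 45 tested genes in RNA, RPF and the ratio of RPF to RNA, grouped by complex, with points for edgeR's estimate and bars for ± SE. The estimates stay between -0.25 and 0.30 in RNA and between -0.37 and 0.37 in RPF, and most complex IV genes lie left of 0 in RPF.

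By complex, estimates were small. In RNA, 14 of 45 genes had a positive and 31 a negative estimate, with a median log2 fold change of -0.07 against -0.01 over all genes. The median was 0.01 without WT 1 and -0.17 without WT 3. In RPF the median was -0.04 (16 positive, 29 negative), and in the ratio 0.05 (26 positive, 19 negative). Complex IV had the lowest RPF median, -0.16, with 12 of 15 estimates negative, against 5554 of 11153 over all genes. These 15 genes share libraries and scaling and are not replicates. The median stayed between -0.19 and -0.09 when a library was left out. The summed RPF level of complex IV ran from 14420 to 15040 CPM over WT and from 12810 to 14350 over KO libraries. The groups did not overlap, but WT 1 (14420) and KO 1 (14350) lay close. The sums of the other complexes in RPF, and of all complexes in RNA, overlapped between genotypes. No test was run on the sums, and 3 against 3 libraries cannot go below an exact permutation p of 0.1. The complex IV sum in RPF averaged 14810 CPM over WT and 13550 over KO libraries, of which Cox6a2 alone held 3350 and 2700 CPM. Complex V had an RPF median of 0.05, and its sum ran from 34180 to 36320 CPM over WT and from 34360 to 37020 over KO libraries. In the ratio of RPF to RNA, 14 of 17 complex V genes had a positive estimate. The median was 0.15 and ran from 0.06 without WT 1 to 0.32 without WT 3. In RNA, 14 of the 17 were negative, with a median of -0.09 that moved to -0.0019 without WT 1. A negative RNA estimate raises the ratio by construction, so these sign counts are not separate observations. The genes also share libraries and are not replicates. Complex I showed the same pattern of signs, linked in the same way, with 33 of 38 positive in the ratio and 34 of 38 negative in RNA. Over all genes, 4160 of 8044 were positive in the ratio and 4268 of 8379 negative in RNA.

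The RNA estimates moved with the libraries that lay apart. Of the 45 genes, 31 had their highest RNA level in WT 1, and the lowest lay in WT 3 for 18 and in KO 3 for 13. Cox8b gave 1371, 1042 and 1259 CPM in WT 1, WT 2 and KO 2, and 779, 871 and 893 CPM in WT 3, KO 1 and KO 3. Sdhc ran the other way, at 19.6, 17.3 and 19.8 CPM in the first 3 of these libraries and 36.7, 38.6 and 32.9 CPM in the others. Its footprints did not follow, at 983, 903 and 814 CPM against 848, 952 and 866 CPM. The labels name no batch for these libraries, and the part of this split in the genotype estimates was not tested.

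Of 50 listed genes that assemble, inhibit or regulate the complexes, 49 were in the tables, and none passed edgeR's test between genotypes (0 of 44 in RNA, 0 of 45 in RPF, 0 of 43 in the ratio). At an unadjusted p below 0.05 there were 1 lower in RNA (0.883% of all genes), 1 higher and 1 lower in RPF (2.73% and 3.23%) and 1 higher in the ratio (1.77%), close to the shares over all genes. Lyrm7, which matures the Rieske protein of complex III, had a log2 fold change of -0.78 (SE 0.34) in RNA and 1.24 (SE 0.45) in the ratio. Cox19, a copper-handling assembly factor of complex IV, had 0.61 (SE 0.24) in RPF, and Atpif1, the inhibitor of the ATP synthase, -0.33 (SE 0.14) in RPF. Their adjusted p-values in edgeR's test lay between 0.834 and 0.9997, and DESeq2 was not summarised for these genes. Sdhaf1, Sco2 and Pet117 were at 0 counts in both assays, and Cox17 in RPF.

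Atrial markers were checked because the samples were labelled left ventricle. Their summed RNA ran from 1681 to 2616 CPM over WT and from 2053 to 4137 over KO libraries, and their RPF from 2424 to 3451 and from 2795 to 3578. None of the 6 was at 0. At an unadjusted p below 0.05, 3 of 4 tested atrial markers (Myl4, Nppa, Sln) had higher RNA in KO (1.66% of all genes). In RPF, 4 of 6 (Bmp10, Dkk3, Myl7, Sln) were higher (2.73% of all genes), and no atrial marker passed the adjusted test in either assay. Of the 9 cardiomyocyte markers, 2 had an unadjusted p below 0.05 in RPF, both lower in KO (3.23% of all genes were lower). These were the ventricular light chain Myl2 at -0.30 (SE 0.09) and Tnni3 at -0.26 (SE 0.09), and the median of the 9 was 8.51e-05. No marker of endothelial cells, fibroblasts, macrophages, adipocytes, erythroid cells or skeletal muscle reached an unadjusted p below 0.05 in RNA, RPF or the ratio. Whether a different share of atrial tissue bears on the estimates of the respiratory genes was not tested.

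Promoter windows of 300 bases (250 before and 50 after a start site, RefSeq, GRCm38.p6) were found for 36 of the 49 genes, with 39 windows. Those of Cox8a and Cox8b are shown as the pair with the largest difference in RNA level between muscle and liver form, with the motifs searched in capitals.
Cox8a: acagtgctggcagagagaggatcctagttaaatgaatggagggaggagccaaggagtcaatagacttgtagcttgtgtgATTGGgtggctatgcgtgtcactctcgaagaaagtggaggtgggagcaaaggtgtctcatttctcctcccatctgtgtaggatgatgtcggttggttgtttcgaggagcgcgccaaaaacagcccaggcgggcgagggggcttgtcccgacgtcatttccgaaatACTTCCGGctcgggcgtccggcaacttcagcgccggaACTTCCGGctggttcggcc
Cox8b: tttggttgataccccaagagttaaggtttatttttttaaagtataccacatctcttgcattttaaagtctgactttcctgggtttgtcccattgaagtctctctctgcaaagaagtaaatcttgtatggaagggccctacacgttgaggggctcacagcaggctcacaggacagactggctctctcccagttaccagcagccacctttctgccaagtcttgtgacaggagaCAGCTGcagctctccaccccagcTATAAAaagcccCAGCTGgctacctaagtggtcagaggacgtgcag
They lie at chr19:7217567-7217866 and chr7:140900397-140900696, both on the minus strand. Each motif was searched on both strands. The Cox8a window held the ETS motif ACTTCCGG 2 times and a CCAAT box (CCAAT). The Cox8b window held the E-box CAGCTG 2 times and a TATA box (TATAAA) between them. Relative to the annotated start site, the E-boxes began at -19 and 17 and the TATA box at 5, after that site. Among the windows of the set, 20.5% held the NRF1 core GCGCATGC, against 2.71% of 32851 windows of all genes, 10.3% against 3.89% held the ETS motif, and 56.4% against 37.4% the CCAAT box. The ERR motif TCAAGGTCA was in 5.13% against 0.423%, the E-box in 5.13% against 16.3%, and the TATA box in 10.3% against 13.6%. These are matches of letters, not sites of binding.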

How the data were processed

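Polyadenylated RNA and ribosome-protected fragments were sequenced from left ventricles of 3 wild-type and 3 Rpl3l-/- libraries each. The authors deposited a raw count per transcript name, 1 name per gene, for each of the 12 libraries, and the values are whole-number counts with no normalization. Reads were trimmed with cutadapt 1.18 and aligned with Bowtie2 2.4.2, per the submitters' processing notes. The counted region, the use of strand, the treatment of reads with several matches and the genome build are not given in the sources used here.

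Names were matched to GENCODE M21 (GRCm38) for lengths, sequences and coordinates. Of 21669 names, 21425 (98.87%) and 48 of the 49 genes of the set matched, all but Atp5md. Shared stretches are windows of 28 bases found in a transcript of another gene. Groups follow the sample labels. The members and lists were chosen with earlier results of these data known. Counts were scaled by TMM and tested with edgeR 4.0.16 (R 4.3.3) by the quasi-likelihood test with Benjamini-Hochberg adjustment over all genes kept by filterByExpr (minimum count 10), at 0.05. The comparisons were KO against WT in RNA and in RPF (6 libraries each), the genotype effect on the ratio of RPF to RNA (an interaction over 12 libraries), and mean RPF against mean RNA. Standard errors were taken from the fold change and its F statistic. Ratios between same-numbered libraries used 0.5 CPM as an added value. Isoform shares were compared with exact two-sided permutation tests, which took all libraries as independent. Scripts were tested on simulated counts.

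Genes named in full were both isoforms of Cox6a, Cox7a and Cox8, the highest and lowest RNA level per kb in each complex, Cyc1 and Cycs, genes at an unadjusted p below 0.05 between genotypes, and the 3 highest and 3 lowest ratios. Further names in the text were picked with their values in view. Assembly factors, regulators and cell type markers were tested as lists. Alternatives were DESeq2 1.42.0, its size factors, other filters, a replicate block, removal of mitochondrial and top 10 genes, 1 fit over the 12 libraries, other lengths and leaving out each library. Precision is limited by 3 libraries a group and, for Sdhc and Sdhd, by low RNA counts.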

Additional observations from a re-analysis of the deposited data

How the results depend on the processing

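No gene of the set was called between genotypes under any alternative run with edgeR or DESeq2. The number of genes with footprints higher than their mRNA rose from 5 to 12 when the fit kept only genes averaging 50 counts or more. Same-numbered WT and KO libraries deviated together with r between -0.182 and 0.387 in RNA and between 0.00553 and 0.0591 in RPF. For same-numbered RNA and RPF libraries, r lay between 0.0766 and 0.154. These correlations cannot decide whether the numbers pair the libraries, and the main fits did not pair them. With a replicate block, 0 genes of the set were called between genotypes in RNA, RPF or their ratio. In RPF against RNA it gave 5 genes of the set higher and 32 lower. In RNA, the fold between subunit positions with coding length was 44.5 (complex II), 22.6 (III), 3.63 (IV) and 11.8 (V). With raw CPM it was 6.75 (III), 7.09 (IV) and 20.9 (V) in RNA, and 4.8 (II) and 71.0 (V) in RPF. With the Cox5b position left out, the RPF fold of complex IV was 4.38. The coding length and this omission were chosen after seeing the data. Each of these follows from the lengths or positions used. Without single libraries, the KO minus WT share ran from -0.545 to 1.16 percentage points for Cox6a2 in RNA, from -0.707 to 0.263 for Cox6a2 in RPF and from -3.27 to 0.987 for Cox8b in RPF. The Atp5g2 log2 fold change in RNA, 0.003499, was -0.003456 with DESeq2, -0.0002599 in the fit of all 12 libraries, -0.00323 with median-of-ratios scaling and -0.003246 with no filter. Without single libraries, log2 fold changes in RNA ran from -0.09808 to 0.09806 (Atp5g2), -0.02094 to 0.2577 (Atp5md), -0.1469 to 0.1859 (Cox6a1), -0.0444 to 0.1586 (Cox6a2), -0.2068 to 0.1715 (Cox7a1), -0.2519 to 0.09914 (Cox7a2) and -0.2776 to 0.145 (Cox8b). In RPF they ran from -0.4888 to 0.01888 (Cox6a1), -0.07178 to 0.03491 (Cox7a1) and -0.1943 to 0.05168 (Cox8a). Why these estimates changed sign was not tested.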
